A study of Mus musculus with 6 samples.

Results

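The circadian clock genes Per1, Per2, Per3, Arntl, Clock, Nr1d1, Nr1d2, Dbp, Tef and Cry2 were measured in the quadriceps muscle of tumour-bearing mice. All probes annotated with these 10 symbols were taken, 20 probes in all, from an array whose annotation names 19057 genes. Of the 20 probes, 15 were detected on at least 2 of the 6 arrays and were tested, and each of the 10 genes kept at least 1 tested probe. The other 5 probes, of Per2, Per3, Clock, Nr1d2 and Cry2, were detected on at most 1 array.

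In mammalian cells the clock is a transcriptional loop. The proteins of Clock and Arntl (also called Bmal1) bind E-box sequences as a pair and switch on the Per and Cry genes, whose products then repress that pair. A second loop runs through the nuclear receptors REV-ERB alpha and beta, encoded by Nr1d1 and Nr1d2, which repress Arntl, and the PAR bZIP factors encoded by Dbp and Tef carry the rhythm to output genes through D-box sequences. In skeletal muscle the clock times genes of fuel use and of myogenesis, and across a day Dbp and Arntl transcripts are known to peak at opposite times.

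The mice were NOD-SCID, an immunodeficient strain without functional T and B lymphocytes that keeps neutrophils and macrophages. They were fed without restriction and carried subcutaneous RXF393 or SKRC39 cells, both human renal cancer lines, for 22 days. The labels call RXF393 cachectic, meaning that it causes loss of muscle and fat, and SKRC39 not cachectic. The RXF393 group held replicates 2 and 3 and the SKRC39 group replicates 1 and 2, numbered by title, and each group is therefore 2 arrays. For the remaining 2 arrays title and characteristics conflict. One is titled RXF_1 but has SKRC39 in its characteristics, and one is titled SKR_3 but has RXF393 there, so both were kept out of the groups and are given apart. The labels do not say at what hour the muscles were taken, and no muscle from tumour-free mice was analysed here. Any part of the hour in the clock gene results was therefore not tested. The design text says that RNA was extracted mouse by mouse, and where arrays are not from separate mice the p-values measure only the spread between arrays.

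Values are log2 intensities after background correction and quantile scaling, and a change is the RXF393 mean minus the SKRC39 mean on that scale, with its standard error (SE). At background a probe reads about 5, and the highest value on each array was 16.15. The lowest value of a detected probe lay between 5.43 and 5.93 across the 6 arrays. The share of probes detected was 33.7% and 30.9% on RXF393 replicates 2 and 3, against 37.7% and 33.7% on SKRC39 replicates 1 and 2. All 10 myofibre markers with a probe were among the tested genes, with summed intensities of 484055 and 466117 on the RXF393 arrays, against 508522 and 521330 on the SKRC39 arrays. Neutrophil markers summed to intensities of 2008 and 6313 on the RXF393 arrays, against 320 and 659 on the SKRC39 arrays, although 7 of the 11 listed markers, Ngp, Camp, Ltf, Mpo, Elane, Cxcr2 and Mmp8, were not detected on any array. Erythroid markers summed to 78921 and 74782 with RXF393, against 67443 and 26619 with SKRC39, with Epb42 not detected, and the 7 fibroblast markers to 18498 and 23827 with RXF393, against 28079 and 31206 with SKRC39. The part of these differences in the clock gene results was not tested. In whole muscle, fewer cells of a type and less RNA per cell cannot be told apart.

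Dbp stood lower and Arntl, Clock and Nr1d1 stood higher on both RXF393 arrays than on either SKRC39 array. None of the 10 genes passed an adjusted p of 0.05 in limma's moderated test, where 0.353% of all 10196 tested genes passed. At an unadjusted p under 0.05, 3 of the 10 genes (Arntl and Clock higher, Dbp lower) and 4 of the 15 probes were called, against 14.8% of all genes and 12.8% of all 17738 tested probes. The RXF393 and SKRC39 arrays did not overlap for 6 of the 10 genes. Of these, 4 were higher (Arntl, Clock, Nr1d1 and Nr1d2) and 2 lower (Dbp, and Per3 at the limit of detection). Among all genes the share without overlap was 48.7%, made up of 28.1% higher and 20.6% lower, so this count lies near the background. The same held for probes, of which 8 of the 15 had lines that did not overlap, against 46.3% of all probes. The median change of the 10 genes was 0.24, beside 0.07 over all genes tested. The lowest adjusted p among the 15 probes was 0.143 (limma), for Dbp, where 0.248% of all probes passed.

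**Figure D1:**
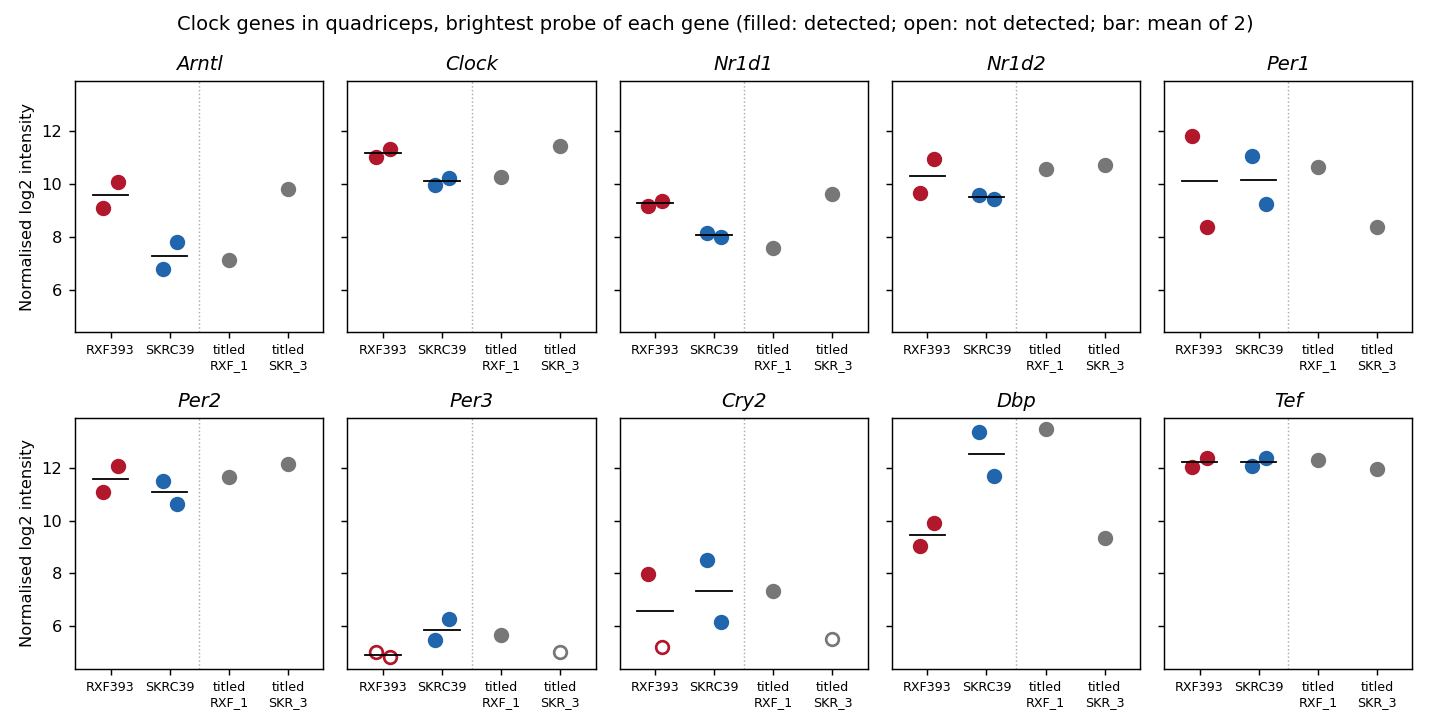
Normalised log2 intensity of the brightest probe of each clock gene on each array, with the RXF393 and SKRC39 arrays as points, their means of 2 as bars, and the arrays with conflicting labels to the right of the dotted line. Dbp lies at 9.02 and 9.89 with RXF393, below 13.33 and 11.69 with SKRC39, and Arntl lies the other way.

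Dbp, the albumin D-box binding protein gene and a direct output of the clock, differed most of the 10. Its normalised intensity was 9.02 and 9.89 on RXF393 replicates 2 and 3, against 13.33 and 11.69 on SKRC39 replicates 1 and 2. Both RXF393 arrays were low and both SKRC39 arrays high, with no overlap, and the nearest pair of arrays of different lines was 1.79 apart. Before normalisation the probe read 624.4 and 980.0 with RXF393, against 10848.1 and 2688.2 with SKRC39. The means were 9.46 ± 0.62 with RXF393 and 12.51 ± 1.16 with SKRC39 (SD, n = 2 each), a change of -3.05 ± 0.64 (SE), or 8.29-fold lower, with a 95% interval from -4.57 to -1.53. This change did not pass after adjustment over all probes (adjusted p = 0.143, limma). Of 10196 genes, 77 had a lower change than Dbp. The call depended on the arrays and the probes tested: Dbp passed among the probes detected on all 6 arrays (adjusted p = 0.0463, limma) and without SKRC39 replicate 2 (change -3.87, adjusted p = 0.011), and did not pass under the other alternatives with 4 or 3 arrays. Without SKRC39 replicate 1 its change was -2.23 ± 0.80 (SE; adjusted p = 0.463, limma). On the arrays with conflicting labels Dbp stood at 13.45 on the array titled RXF_1 and at 9.33 on the array titled SKR_3.

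Tef, the thyrotroph embryonic factor gene and a PAR bZIP relative of Dbp, has probes annotated to different RefSeq transcripts, and these gave different readings. The brighter probe, ILMN_2676052, stood at 12.02 and 12.37 with RXF393, against 12.06 and 12.35 with SKRC39. The groups overlapped fully, with a change of -0.01 ± 0.36 (SE, n = 2 each; 95% interval -0.86 to 0.84). Its range over the 6 arrays was 0.42, smaller than that of all but 1.75% of genes. The dimmer probe, ILMN_2715400, stood at 8.81 and 8.87 with RXF393, against 9.86 on SKRC39 replicate 2 and 0.14 above that on replicate 1. Its means were 8.84 ± 0.05 with RXF393 and 9.93 ± 0.10 with SKRC39 (SD, n = 2 each). The lines did not overlap, yet the change of -1.09 ± 0.52 (SE) did not pass (adjusted p = 0.433, limma). The same probe read 10.01 on the array titled RXF_1 and 8.80 on the array titled SKR_3.

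The sequences before the annotated starts of Dbp and of Tef are shown because these are the PAR bZIP genes of the set and because Tef has more than 1 annotated start. They are the 250 bases before the start, 5′ to 3′, from the RefSeq promoter table of GRCm38.p6: Dbp at chr7:45704997-45705246, plus strand, and Tef at chr15:81802423-81802672, plus strand and chr15:81811164-81811413, plus strand. Capitals mark the E-box letters CACGTG. The tables do not pair either Tef start with a probe.
Dbp: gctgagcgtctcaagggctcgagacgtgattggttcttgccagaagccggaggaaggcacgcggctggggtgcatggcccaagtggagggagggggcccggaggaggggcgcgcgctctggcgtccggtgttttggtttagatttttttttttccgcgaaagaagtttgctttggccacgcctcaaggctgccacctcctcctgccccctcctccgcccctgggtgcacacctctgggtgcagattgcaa
Tef, first start: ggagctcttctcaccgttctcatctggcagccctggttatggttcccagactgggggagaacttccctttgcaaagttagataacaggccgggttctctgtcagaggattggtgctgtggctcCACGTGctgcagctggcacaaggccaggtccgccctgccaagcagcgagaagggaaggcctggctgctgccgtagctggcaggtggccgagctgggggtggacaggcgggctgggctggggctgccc
Tef, second start: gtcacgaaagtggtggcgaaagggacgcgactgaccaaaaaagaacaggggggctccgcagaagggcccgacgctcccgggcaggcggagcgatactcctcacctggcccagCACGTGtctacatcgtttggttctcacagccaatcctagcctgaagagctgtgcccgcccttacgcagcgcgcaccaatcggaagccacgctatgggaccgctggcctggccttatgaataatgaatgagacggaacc

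Each Tef window held CACGTG once, with its first base at -127 before the first start and at -138 before the second, and the Dbp window did not hold these letters. CACGTG reads the same on both strands and occurred in 6.02% of all 32851 windows of this length in the table. A match is a description of the letters and not of a bound site.

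Arntl, which encodes the BMAL1 partner of CLOCK, had the largest positive change of the 10 genes. Its normalised intensity was 9.08 and 10.05 on RXF393 replicates 2 and 3, against 6.77 and 7.81 on SKRC39 replicates 1 and 2. Both RXF393 arrays lay above both SKRC39 arrays, by at least 1.26. The means were 9.56 ± 0.69 with RXF393 and 7.29 ± 0.74 with SKRC39 (SD, n = 2 each), a change of 2.27 ± 0.71 (SE), or 4.82-fold, with a 95% interval from 0.59 to 3.95. It did not pass (adjusted p = 0.28, limma), and 168 of 10196 genes had a higher change. Among the alternatives with 4 or 3 arrays, Arntl passed only with the description number as a replicate block (adjusted p = 0.0482, limma). In that fit 3.49% of all genes passed, and the numbers are not taken as pairs. The array titled RXF_1 stood at 7.11 and the array titled SKR_3 at 9.80.

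Clock, whose protein pairs with BMAL1, showed a smaller difference on its bright probe, ILMN_2610973. That probe stood at 11.03 and 11.30 with RXF393, against 9.96 and 10.22 with SKRC39. Arrays of the same line were within 0.27 of each other and the lines lay apart, with a change of 1.07 ± 0.44 (SE, n = 2 each; 95% interval 0.03 to 2.11; adjusted p = 0.384, limma). The array titled RXF_1 stood at 10.26 and the array titled SKR_3 at 11.43. A second tested Clock probe, ILMN_2600964, was detected on 1 of the 2 arrays of each line and lay near background, between 4.73 and 5.98 on the 6 arrays, so its change of -0.27 ± 0.50 says little. The other, ILMN_2589603, was not detected on any array.

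Npas2 and Arntl2, the paralogues of Clock and Arntl, were not detected on any array. Rora, whose receptor activates Arntl through the same response elements that REV-ERB binds, stood at 10.74 and 8.38 with RXF393, against 11.77 and 9.74 with SKRC39. The lines overlapped, and the change of -1.20 ± 0.95 (SE, n = 2 each) did not pass (adjusted p = 0.592, limma). Rorb, a related receptor gene, was detected on 1 array and was not tested.

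The window before the first annotated Arntl start (chr7:113207215-113207464, plus strand, GRCm38.p6, RefSeq) is printed because Arntl is the gene that REV-ERB receptors act on.
Arntl, first start: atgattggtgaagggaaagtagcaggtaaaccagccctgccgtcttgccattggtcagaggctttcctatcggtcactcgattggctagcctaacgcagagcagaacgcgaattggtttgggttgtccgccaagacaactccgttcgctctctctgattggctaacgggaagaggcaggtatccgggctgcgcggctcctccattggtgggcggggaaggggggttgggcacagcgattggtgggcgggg
The response-element letters ANTNGGTCA, searched on both strands, were not in this window or in any of the 14 windows of the 9 clock genes that the table holds, and they were in 1.87% of all windows. Their absence says only that these letters are not within the 250 bases searched. The table holds no window for Per2.

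Nr1d1 and Nr1d2, which encode the repressors of Arntl, both had higher means with RXF393. Nr1d1 stood at 9.15 and 9.36 with RXF393, against 8.13 on SKRC39 replicate 1 and 0.13 below that on replicate 2. The means were 9.26 ± 0.15 with RXF393 and 8.06 ± 0.09 with SKRC39 (SD, n = 2 each). The lines lay apart, but the change of 1.19 ± 0.59 (SE, n = 2 each; 95% interval -0.19 to 2.58) did not pass (adjusted p = 0.441, limma). On the arrays with conflicting labels Nr1d1 read 7.59 on RXF_1 and 9.61 on SKR_3, the lowest and the highest of the 6 values. Nr1d2 stood at 9.66 and 10.94 with RXF393, against 9.57 and 9.42 with SKRC39. Its replicate 2 with RXF393 lay only 0.09 above SKRC39 replicate 1, and the change was 0.81 ± 0.59 (SE, n = 2 each; 95% interval -0.59 to 2.21; adjusted p = 0.567, limma). Without RXF393 replicate 3 the change was 0.17, and without RXF393 replicate 2 it was 1.45. Both arrays with conflicting labels were high for Nr1d2, at 10.57 on RXF_1 and 10.70 on SKR_3. The other Nr1d2 probe was detected on the array titled RXF_1 alone.

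**Figure D2:**
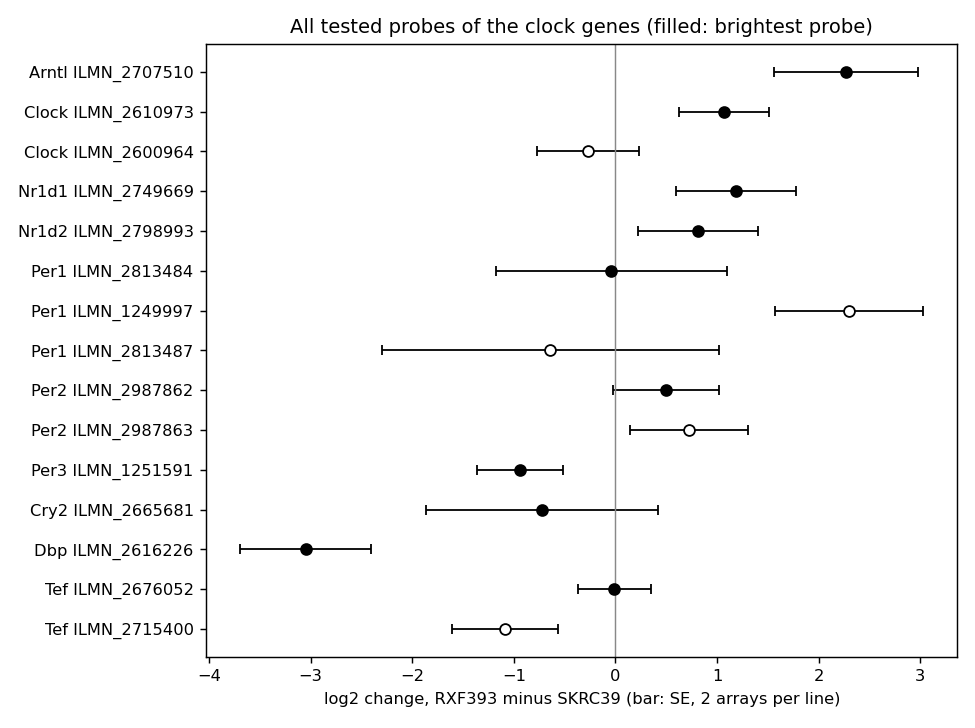
Change in log2 intensity (RXF393 minus SKRC39) with its SE for the 15 tested probes, 2 arrays per line, filled for the brightest probe of a gene. Dbp lies at -3.05 and Arntl at 2.27, whereas the 3 Per1 probes lie at -0.04, 2.30 and -0.64.

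Per1, a repressor of CLOCK and BMAL1 that is also induced by glucocorticoids and cAMP, gave readings that depended on the probe. The brightest probe, ILMN_2813484, stood at 11.82 and 8.38 on RXF393 replicates 2 and 3, against 11.04 and 9.23 on SKRC39 replicates 1 and 2. The RXF393 arrays lay on both sides of the SKRC39 arrays, and the change was -0.04 ± 1.14 (SE, n = 2 each; 95% interval -2.73 to 2.66). ILMN_2813487, annotated to the same RefSeq transcript, stood at 10.80 and 5.32 with RXF393, against 9.60 and 7.78 with SKRC39, and was not detected on RXF393 replicate 3. Both of these probes were thus highest on RXF393 replicate 2 and lowest on RXF393 replicate 3, with a gap of 3.44 and of 5.48 within that line. They were also low on the array titled SKR_3, at 8.38 and 5.55, against 10.65 and 9.13 on the array titled RXF_1.

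The remaining Per1 probe, ILMN_1249997, is annotated to a cDNA entry in place of the RefSeq transcript and read differently. It stood at 8.77 and 10.27 with RXF393, against 7.12 and 7.32 with SKRC39. Here the lines lay apart, with a change of 2.30 ± 0.73 (SE, n = 2 each; 95% interval 0.59 to 4.02; adjusted p = 0.28, limma). RXF393 replicate 3, the lowest array on the other Per1 probes, was the higher of the RXF393 arrays on this one, and the array titled SKR_3 was higher still at 10.51, against 6.68 on the array titled RXF_1. No direction is therefore given for Per1. Probe sequences were not used here, so where on the gene each probe lies was not looked up.

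**Figure D3:**
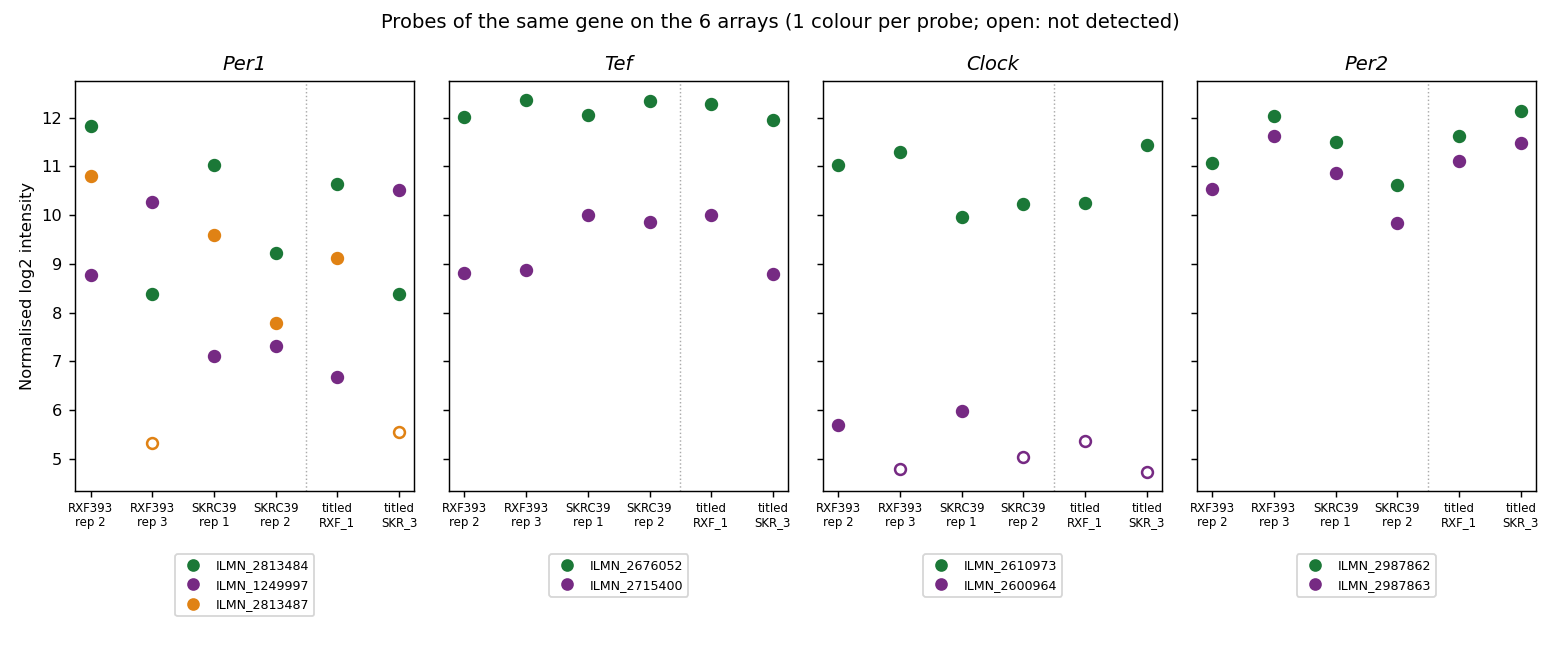
Normalised log2 intensity of each tested probe of Per1, Tef, Clock and Per2 on the 6 arrays, 1 colour per probe, open where the probe was not detected. Among the 4 grouped arrays both Per2 probes are highest on RXF393 replicate 3, whereas on RXF393 replicate 3 the Per1 probes read 8.38, 10.27 and 5.32.

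Per2, a PER gene whose loss shortens or ends the daily rhythm of mice, had a pair of concordant probes. ILMN_2987862 stood at 11.08 and 12.04 with RXF393, against 11.50 and 10.62 with SKRC39. ILMN_2987863 stood at 10.54 and 11.63 with RXF393, against 10.87 and 9.85 with SKRC39. On both probes RXF393 replicate 3 was the highest of the 4 arrays, SKRC39 replicate 2 the lowest, and the lines overlapped. The changes were 0.50 ± 0.52 and 0.72 ± 0.58 (SE, n = 2 each), with 95% intervals from -0.73 to 1.73 and from -0.65 to 2.10, and neither passed (adjusted p = 0.679 and 0.594, limma).

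Per3 lay at the limit of detection. Its tested probe was detected on both SKRC39 arrays, at 5.48 and 6.27, and on neither RXF393 array, where it read 5.02 and 4.84. With the RXF393 arrays set to their lowest detected values, 5.65 and 5.87, the Per3 mean was at least 1.09-fold lower with RXF393. SKRC39 replicate 1 lay below both of these values, so the bound rests on SKRC39 replicate 2. The fitted change of -0.94 ± 0.42 (SE, n = 2 each; 95% interval -1.93 to 0.05) did not pass (adjusted p = 0.405, limma). Per3 was detected on the array titled RXF_1 (5.67) and not on the array titled SKR_3. The Per3 window (chr4:151044666-151044915, minus strand, GRCm38.p6, RefSeq) is shown because it was the only one of the 14 with D-box letters, the sequence that DBP and TEF proteins bind.
Per3: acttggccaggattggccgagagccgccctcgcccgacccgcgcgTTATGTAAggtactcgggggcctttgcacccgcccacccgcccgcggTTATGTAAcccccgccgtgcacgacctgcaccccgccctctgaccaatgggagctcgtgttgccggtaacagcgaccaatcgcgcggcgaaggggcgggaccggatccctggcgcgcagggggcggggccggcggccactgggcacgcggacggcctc
Capitals mark TTATGTAA, found here on the printed strand with first bases at -205 and -158. The letters TTATGTAA or TTACGTAA, on either strand, occurred in 0.931% of all windows. Among the windows of the clock genes CACGTG was found in 3 of the 14, those of Tef and that before the first annotated start of Per1.

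Cry2, a cryptochrome and partner repressor of the PER proteins, varied more within each line than between the line means. Its arrays lay 2.77 apart with RXF393 and 2.32 apart with SKRC39. It stood at 7.99 and 5.22 with RXF393, the second value being undetected, against 8.49 and 6.16 with SKRC39. Each line had a high and a low array, and the change was -0.72 ± 1.14 (SE, n = 2 each; 95% interval -3.42 to 1.98; adjusted p = 0.795, limma). The array titled RXF_1 read 7.32, and the array titled SKR_3 read 5.51 without detection. The other Cry2 probe and the only Cry1 probe, for the second cryptochrome, were not detected on any array.

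The spread over the 6 arrays set the genes apart from one another. Dbp ranged over 4.43, more than 97.1% of genes, Per1 over 3.44, Arntl over 3.28 and Cry2 over 3.27, where the median gene ranged over 1.43. Nr1d1 ranged over 2.01, Per2 and Nr1d2 over 1.52, Clock over 1.47 and Per3 over 1.42. Taking each probe against its own mean over the 6 arrays, Clock (bright probe), Nr1d1 and Per1 probe ILMN_1249997 were on the same side of their mean as Arntl on 6 of 6 arrays. Dbp, Per3 and the dimmer Tef probe were on the opposite side on 6 of 6 arrays. Per2 and Nr1d2 shared the side of Arntl on 4 arrays, and Cry2, the brighter Tef probe and the other Per1 probes on 2. Among the other clock genes described below, Ciart, Timeless, Csnk1e, Csnk1a1, Pdk4 and Coq10b also shared the side of Arntl on 6 of 6 arrays. Usp2, Tcap, Pdp1 and Tbc1d1 were opposite on 6 of 6, and the rest shared its side on 1 to 5. The share over all genes was not counted, so the counts do not set these genes apart from others. All of these counts were made after the values were seen and carry no test.

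**Figure D4:**
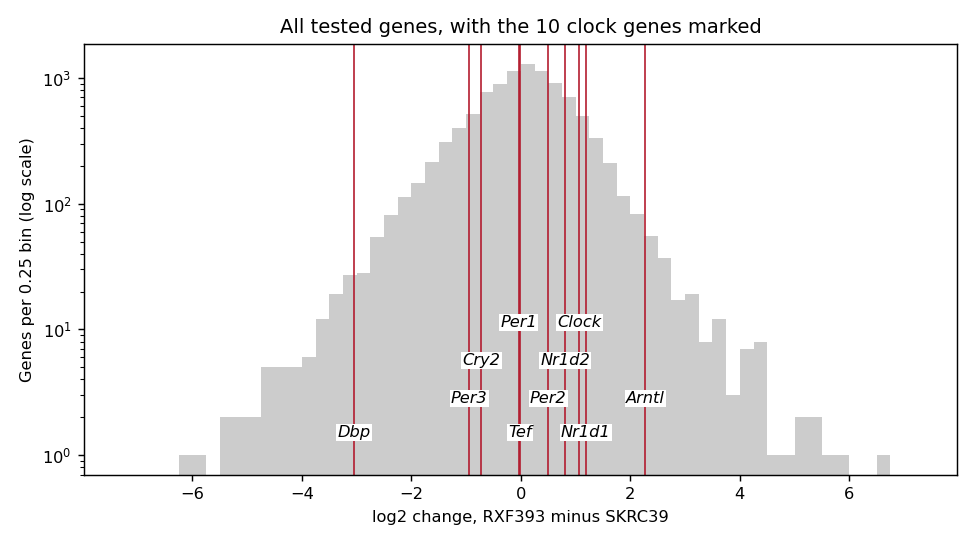
Histogram of the log2 change (RXF393 minus SKRC39) over all 10196 tested genes in bins of 0.25, number of genes on a log scale, with the 10 clock genes as vertical lines. Dbp lies in the lower tail at -3.05, Arntl towards the upper tail at 2.27, and the remaining 8 lie between -0.94 and 1.19.

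Outside the clock lists, the genes with the profile most like that of Arntl were Cipc, Gtf3c4 and Tor1aip1, with root mean square differences of 0.15, 0.17 and 0.17 between profiles centred over the 6 arrays. The median over 7222 candidate genes was 1.17. Cipc, whose name stands for CLOCK-interacting pacemaker, stood at 11.48 and 12.31 with RXF393, against 9.30 and 10.31 with SKRC39. Those most like Dbp were Tiam1, a Rac exchange factor gene, Eml1, a microtubule-associated protein gene, and Dhrs7c, a dehydrogenase gene of the sarcoplasmic reticulum, at 0.36, 0.42 and 0.57, where the median was 1.97.

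The other clock genes were counted in lists from textbook knowledge, chosen with earlier results of these data known. Of 35 genes 30 had a probe and 21 were tested, and none passed (0.353% of all genes passed; lowest adjusted p = 0.198, limma). At an unadjusted p under 0.05, 5 were higher and 2 lower, against 8.10% and 6.69% of all genes. Changes were positive for 11 and negative for 10, with a median of 0.19, beside 0.07 over all genes.

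Among the repressors and PAR bZIP relatives 3 of 7 were tested, and all 3 had lines that did not overlap, higher with RXF393, where 28.1% of all genes did so. Ciart, a repressor also known as Chrono, stood at 9.13 and 11.80 with RXF393, against 7.28 and 6.70 with SKRC39. Its change was 3.48 ± 0.93 (SE, n = 2 each; adjusted p = 0.221, limma) on the brightest probe and 3.75 on another, whereas another tested probe stood at -0.16. Timeless stood at 1.00 ± 0.70 and Bhlhe40, which encodes the E-box repressor DEC1, at 0.78 ± 0.44. Hlf, a further PAR bZIP gene, and Bhlhe41 were not detected.

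Of the genes whose proteins modify clock proteins 8 of 11 were tested, 5 with a positive and 3 with a negative change. Csnk1e, a casein kinase that phosphorylates PER proteins, stood at 13.01 and 13.57 with RXF393, against 12.40 and 12.26 with SKRC39, a change of 0.96 ± 0.34 (SE, n = 2 each; adjusted p = 0.334, limma). A dimmer Csnk1e probe overlapped between lines, with a change of 0.60 ± 0.45. Csnk1a1, a related kinase, was detected with RXF393 alone, on both arrays, at least 2.87-fold above the SKRC39 level (adjusted p = 0.273, limma). Prkaa2, the AMPK catalytic subunit whose phosphorylation marks cryptochromes for decay, had the largest change of this list at -3.22 ± 1.89. It stood at 11.76 and 5.53 with RXF393, against 13.33 and 10.41 with SKRC39, so the RXF393 arrays lay further apart than the lines, and it was not detected on RXF393 replicate 3. A dimmer Prkaa2 probe stood at -0.68 ± 0.82.

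Of the muscle genes known to follow the clock 9 of 12 were tested, 3 with a positive and 6 with a negative change. Among the negative changes, that of Tcap (-0.04 ± 0.18) comes from a probe near the top of the scale on all 6 arrays, so its direction says little. Another Tcap probe, ILMN_2933357, stood at 16.09 and 14.48 with RXF393, against 16.06 and 16.11 with SKRC39. Its lines overlapped, with a change of -0.80 ± 0.47, and it read 13.91 on the array titled SKR_3 and 16.09 on RXF_1. Pdk4, the kinase that inhibits pyruvate dehydrogenase, had means of 15.50 ± 0.70 with RXF393 and 13.20 ± 1.20 with SKRC39 (SD, n = 2 each) and did not overlap between lines, a change of 2.30 ± 0.58 (SE; adjusted p = 0.198, limma). It lay near the top of the scale on RXF393 replicate 2. Pdp1, the phosphatase with the opposite action, stood at 6.82 and 5.00 with RXF393, the second value undetected, against 11.39 and 8.26 with SKRC39, a change of -3.92 ± 1.16 (adjusted p = 0.259, limma). A dimmer Pdp1 probe stood at 0.30 ± 0.49. Myod1, the myogenic factor gene and a target of CLOCK and BMAL1, was detected on SKRC39 replicate 1 alone of the 4 arrays, at 8.86. It read 5.51 on SKRC39 replicate 2, and 5.28 and 4.83 with RXF393. The change of -2.13 ± 1.03 (SE, n = 2 each; 95% interval -4.57 to 0.30) thus rests on 1 array and did not pass (adjusted p = 0.435, limma).

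**Figure D5:**
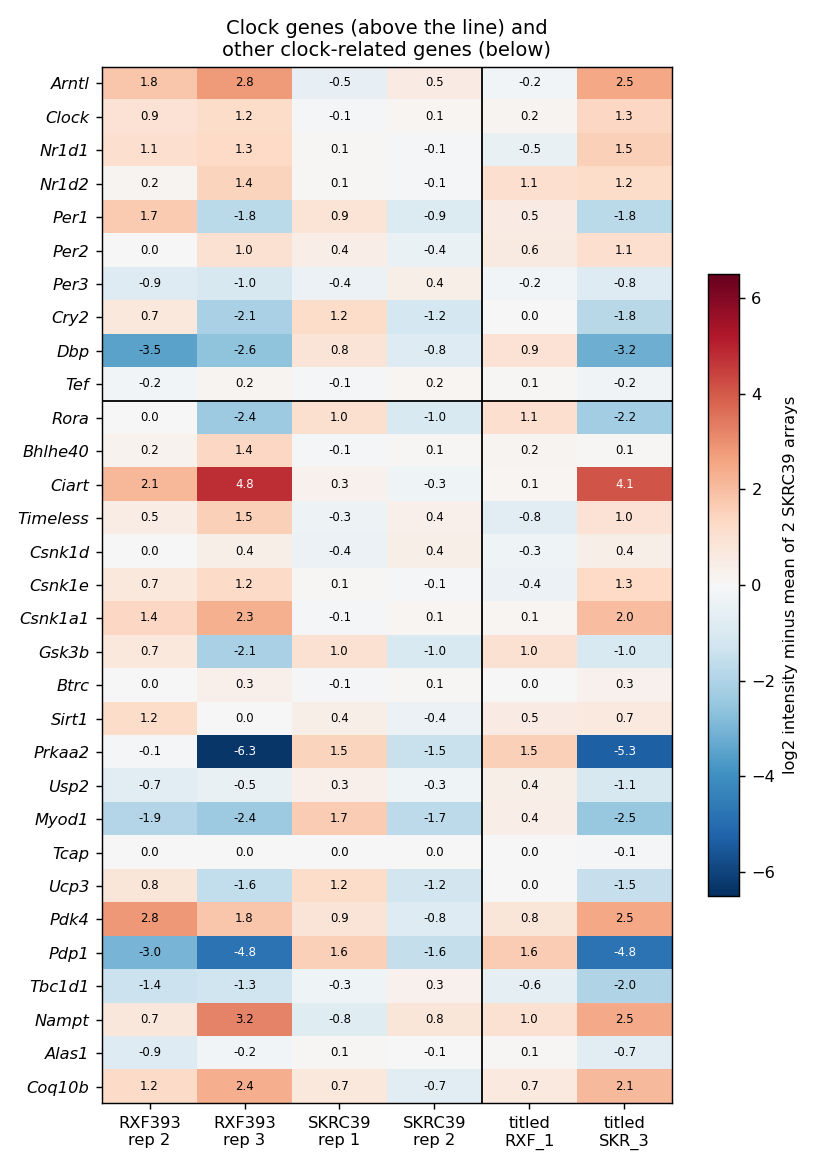
Log2 intensity minus the mean of the SKRC39 arrays for the brightest probe of each clock gene (above the line) and of 21 other clock genes (below), by array, with the arrays of conflicting labels in the columns on the right. Ciart and Arntl are red and Dbp and Pdp1 blue on both RXF393 arrays.

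The result for the set turned on how the arrays with conflicting labels were treated. With all 6 arrays grouped by characteristics, 3 per line, 4 of the 10 genes passed, where 18.3% of all genes did. These were Dbp at -3.41 ± 0.49 (adjusted p = 0.0062, limma), Arntl at 2.41 ± 0.43 (adjusted p = 0.0133), Clock at 1.10 ± 0.25 (adjusted p = 0.0256) and Nr1d1 at 1.47 ± 0.33 (adjusted p = 0.0272). The dimmer Tef probe, at -1.13 ± 0.27, and Per1 probe ILMN_1249997, at 2.81 ± 0.51, passed too (adjusted p = 0.0315 and 0.0138, limma), so that 6 of the 15 probes passed, where 9.05% of all probes did so as higher and 6.95% as lower. Per3, Per2, Nr1d2 and Cry2 and the brightest probes of Per1 and Tef did not pass. With the same 6 arrays grouped by title, none of the 10 passed, as none of all genes did (0% in limma; 0.186% at an unadjusted p under 0.05, among them none of the 10), and Dbp stood at -0.66 ± 1.36 and Arntl at 0.62 ± 1.02. The 4 arrays with concordant labels are part of both groupings, so neither is independent of the 4-array values.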

How the data were processed

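Quadriceps RNA was measured on 6 Illumina arrays (MouseWG-6 v2.0), per the labels' design text. Probe intensity (linear, not normalized) came, per the file headers, from a deposited table. Beside each intensity the deposited table gives a detection p-value. Another holds the authors' quantile-normalized intensity from GenomeStudio, per the labels' design text, and was used as an alternative. The neqc function of limma 3.58.1 (R 4.3.3) corrected the background by normexp, using the detection p-values, added an offset of 16, scaled all 6 arrays together by quantiles and took log2. The offset makes changes of dim probes too small. Of 45281 probes, 17738 were tested (2 or more arrays had detection p below 0.05) with limma's moderated test (intensity trend, RXF393 against SKRC39, 2 arrays each), with Benjamini-Hochberg adjustment over all of them. Each gene is read on its brightest probe, by the 6-array mean. Where a group detected a probe on neither array, a fold is "at least", against the probe's own value or, where higher, the dimmest detected probe of that array. The number of arrays limits the precision. Named were all 10 genes and, of each other list, the 3 tested genes with the largest change and, for Dbp and Arntl, the 3 genes of most similar profile. Members and lists were chosen with earlier results of these data known. Symbols come from the platform annotation and sequences from RefSeq (GRCm38.p6). The array files give no build. The fit was tested on simulated data. Alternatives changed the background correction, scaling, table, offset, filter, variance model, probe summary, arrays and pairing.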

Additional observations from a re-analysis of the deposited data

Results flagged for a closer look

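Only the brightest probe of each clock gene was searched, and only for values above the SKRC39 arrays. On the arrays left out of the groups, 5 such values lay more than 1 above the higher SKRC39 array on the log2 scale. On the array titled SKR_3, whose other labels say RXF393, these were Arntl at 9.80 (highest SKRC39 value 7.81), Clock at 11.43 (10.22), Nr1d1 at 9.61 (8.13) and Nr1d2 at 10.70 (9.57). On the array titled RXF_1, whose other labels say SKRC39, it was Nr1d2 at 10.57 (9.57). The groups hold 2 arrays each, too few for a test of single arrays as outliers.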

How the results depend on the processing

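Over 16 alternatives the 10 changes gave 158 values, of which 134 kept direction and side of the threshold, 11 newly passed and 13 turned. Per2, Per3, Arntl, Clock, Nr1d1, Nr1d2 and Dbp kept their sign under each alternative that gave a value, some close to 0: Per2 was at 0.02 and Nr1d2 at 0.17 without RXF393 replicate 3, Per2 at 0.06 without SKRC39 replicate 2, and Nr1d1 at 0.12 by title. Leaving out 1 array gave ranges of -3.87 to -2.23 for Dbp, 1.75 to 2.79 for Arntl, 0.93 to 1.21 for Clock, 1.09 to 1.30 for Nr1d1, 0.17 to 1.45 for Nr1d2, 0.02 to 0.98 for Per2, -1.33 to -0.55 for Per3, -1.76 to 1.68 for Per1, -0.19 to 0.17 for Tef and -2.11 to 0.66 for Cry2. Per1 turned to 0.04 without background correction, 0.03 in the deposited quantile-normalized table, 0.54 as the mean of its probes, 0.73 by title, 0.87 without SKRC39 replicate 1 and 1.68 without RXF393 replicate 3. Tef turned to 0.28 under median scaling, 0.10 by title, 0.13 without SKRC39 replicate 2 and 0.17 without RXF393 replicate 2. Cry2 turned to 0.12 by title, 0.44 without SKRC39 replicate 1 and 0.66 without RXF393 replicate 3. The causes were not tested.

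Among probes detected on all 6 arrays 1 of 8 clock genes and 1 of 11 probes passed (Dbp; fewer probes were adjusted for, Per3 and Cry2 were not tested), where 2.02% of all genes did. By characteristics 4 of 10 genes, 6 of 15 probes and 8 of the 21 other clock genes passed, where 18.3% of all genes did. Leaving out 1 array gave 0 to 1 genes and 0 to 1 probes (Dbp without SKRC39 replicate 2) and 0 to 2 of the 21 other clock genes: Pdk4 without SKRC39 replicate 1, Pdp1 without SKRC39 replicate 2, Ciart and Prkaa2 without RXF393 replicate 2. The share of all genes that passed was 0.638% without SKRC39 replicate 1, 1.31% without SKRC39 replicate 2, 4.41% without RXF393 replicate 2 and 0.196% without RXF393 replicate 3. These fits with 1 array in a group assume that it varies like the others. With the description number as a replicate block 1 gene and 1 probe passed (Arntl, adjusted p = 0.0482, limma) and 2 other clock genes, where 3.49% of all genes did. With that block and 6 arrays by characteristics 4 of 10 genes, 6 of 15 probes and 14 of 21 other clock genes passed, where 30.5% of all genes did. Arrays with the same number had deviations correlated at 0.51 on the 4 arrays. On the 6 arrays the values were 0.49, -0.12 and 0.46, with -0.12 between the arrays with conflicting labels. Because of that value the numbers are not taken as pairs, though those arrays are not among the 4 compared. Over all genes, 36 of 10196 passed, against 0 under median scaling and 0 without the intensity trend (limma), and 147 of 7274 detected on all 6 arrays. Unadjusted, under 0.05, 4 of the 10 clock genes were called with median scaling and 3 of the 10 with no trend, where 15.1% and 13.2% of all genes were. Signal near background limits Per3, Cry2 and the dimmer Clock probe.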
